A study of Homo sapiens with 14 samples.

Results

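In HGC-27, an established line of gastric carcinoma cells, 26 of 157 CpG sites measured at the TEAD4 locus were already methylated at 10% or more in untreated cells. The sites were chosen by 1 measure, the mean methylation level over the 2 untreated libraries, so the untreated levels below describe the choice and are not a result. Of the 26 sites, 15 form a block in the gene body. The other 11 lie singly or close together around the annotated start of the gene and are called promoter sites here. The promoter sites were divided at an untreated mean of 50% into 7 high and 4 intermediate sites.

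Methylation was measured by bisulfite sequencing of amplicons in 14 libraries, 2 for each of 7 groups. Untreated HGC-27 cells were not transfected. HGC-27 cells of the gRNA-only arm were given 7 guide RNAs against the TEAD4 promoter and nothing else, sampled on days 3, 7 and 14 after transfection. Edited cells, sampled on the same days, are named Tr.HGC-27-KRAB in the labels and were given the DNMT3AL domain with the same 7 guides. The arms therefore differ in the KRAB line as well as in the DNMT3AL domain, and these cannot be told apart. After transfection, cells were selected in doxycycline and Blasticidin S for about 3 days. All cells are 1 cell line and every library carries batch 1 in the labels. Nothing in the labels tells separate cultures from repeat libraries, so a p-value here covers spread among libraries that may be technical. The protocol sets a minimum number of reads per amplicon, but the depth behind each level is unknown, so no counting interval is given.

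Cytosine methylation at CpG dinucleotides is copied to the new strand at replication by DNMT1 and placed on unmethylated DNA by DNMT3A with its cofactor DNMT3L. KRAB is a repressor domain that recruits silencing factors through KAP1. CpG-dense stretches around gene starts are usually free of methylation, whereas CpG sites inside gene bodies are usually methylated. TEAD4 is a TEA domain transcription factor of the Hippo pathway, through which the coactivators YAP and TAZ reach DNA.

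On GRCh38, TEAD4 spans 2959397 to 3040676 on chromosome 12, on the forward strand, and positions are given from its start. Of the 11 promoter sites, 8 lie before the start and 3 after it. All 11 lie within LOC124902859, a long non-coding RNA gene on the reverse strand from 2957598 to 2960048. A gap of 3310 bp without measured sites separates them from the gene-body block. The RefSeq promoter table of GRCh38.p14 matched 1 of the 2 genes, LOC124902859, whose window holds 1 of the 26 sites. It is shown because it sets that fully methylated site beside sites that were low in untreated cells. The window, chr12:2959999-2960298, is printed on the forward strand, and capitals mark the 5 CpG dinucleotides with a measured level.

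LOC124902859 window: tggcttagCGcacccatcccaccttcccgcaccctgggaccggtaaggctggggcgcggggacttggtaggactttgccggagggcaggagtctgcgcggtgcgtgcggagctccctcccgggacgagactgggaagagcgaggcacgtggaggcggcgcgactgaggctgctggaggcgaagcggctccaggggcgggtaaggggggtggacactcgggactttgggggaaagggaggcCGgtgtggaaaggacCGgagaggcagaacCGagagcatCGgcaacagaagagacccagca

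The first capital pair is CpG 2960007, which lay between 99.97 and 100.0% in all 14 libraries. The other 4 are sites below the limit, the nearest of them 232 bp further on, at CpG 2960239. There the untreated mean was 1.31%, the gRNA-only mean 1.62% ± 1.33 (SD, n = 6) and the edited mean 6.99% ± 3.14 (SD, n = 6). The window holds 25 CpG dinucleotides, of which 20 have no measured level here, so levels between these sites were not analysed.

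Libraries differed beyond their groups, which touches the choice of sites. Over the 131 sites below the limit, untreated replicate 2 averaged 4.02% and untreated replicate 1 averaged 0.667%. The gRNA-only replicate 1 libraries averaged 6.06, 2.12 and 1.95% on days 3, 7 and 14, and the replicate 2 libraries 0.618 to 0.748%. In edited cells the day 3 libraries averaged 10.8 and 26.6%, and the later libraries 16.9 to 23.2%. Of the 26 sites, 24 were at or above 10% in both untreated libraries. The remaining 2, CpG 2959145 and CpG 2959150, passed only through replicate 2. They had 5.37 and 5.73% in replicate 1 and 18.6 and 20.3% in replicate 2, so their description as methylated before editing holds in 1 of 2 libraries. They were also the sites just inside the limit, with untreated means of 11.98 and 13.03%. Just outside it, CpG 2959561 and CpG 2959564 had untreated means of 9.74 and 9.29%, again from 19.1 and 17.8% in replicate 2 and under 1% in replicate 1.

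For most of the sites that were already methylated, no difference between edited and gRNA-only cells was detectable. On the log2 odds scale, limma adjusted over all 157 sites called 4 of the 26 higher in edited cells over all days and 0 lower. Quasi-binomial regression called 5 higher and 1 lower. Its share over all 157 sites is not given here, so limma's shares below are no background for that count. Among all 157 sites limma called 85.4% higher and 0.0% lower, and among the 131 sites below the limit it called 130 higher. In 3 of the 26 sites every edited library lay above every gRNA-only library, against 65.6% of all sites. The median difference was -0.02 percentage points over the 26 sites, 13.4 over the 131 sites below the limit and 10.4 over all 157. All 4 higher sites lay around the start: 2 of the 7 high and 2 of the 4 intermediate promoter sites. Of the 26, 18 were above 90% in every library, so a rise of 13.4 points was not possible at those sites. The choice of sites thus limited the size of any rise. These counts and differences cannot tell a lack of effect from a lack of room, and whether editing acts on these sites was not tested.

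**Figure D1:**
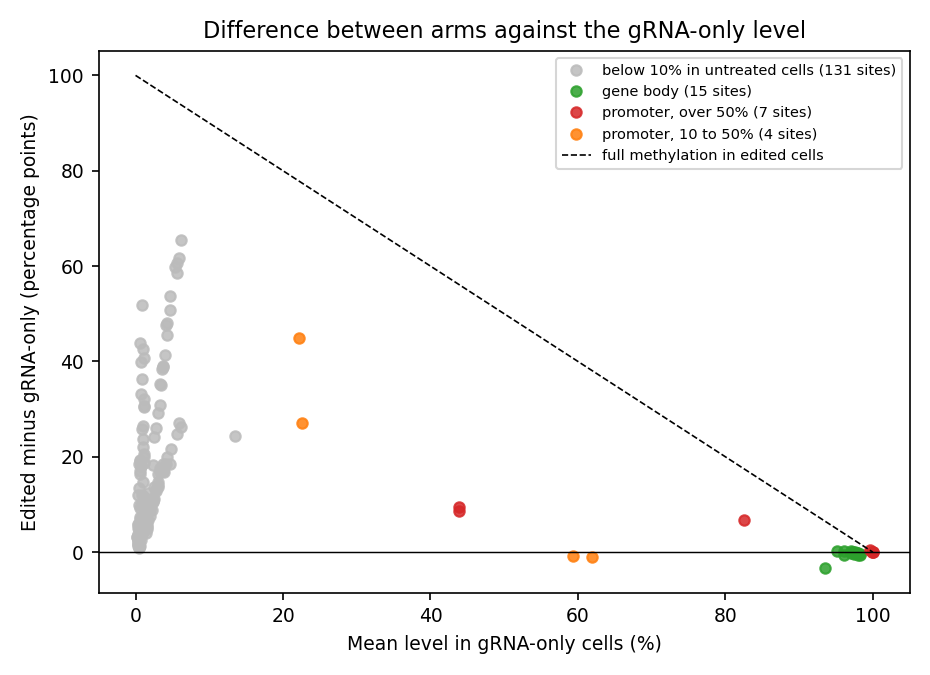
Each point is a CpG site, with its mean level over the 6 gRNA-only libraries on the horizontal axis (%) and the edited minus gRNA-only difference on the vertical axis (percentage points); the dashed line marks full methylation in edited cells. The 15 gene-body sites and 4 promoter sites sit at the right end near a difference of 0, and 2 intermediate sites stand at 27.0 and 44.9 points.

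The 15 gene-body sites, from CpG 2963587 to CpG 2964284, lie 4190 to 4887 bp inside TEAD4 and were close to full methylation in all 14 libraries. Their mean per library ran from 95.9 to 97.4%. Untreated cells had a mean of 97.0% ± 0.048 (SD, n = 2). With guides alone it was 97.0% ± 0.444, and after editing 96.6% ± 0.473 (SD, n = 6 each). The difference of -0.38 points between edited and gRNA-only cells was smaller than the SD of either arm, and it was -0.76 points without the gRNA-only replicate 1 libraries. By day the differences were 0.097 points on day 3, -0.43 on day 7 and -0.79 on day 14. On day 14 the edited libraries had 96.6 and 95.9% and the gRNA-only libraries 96.8 and 97.3%, so the groups did not overlap, but the means carry no test, since the sites were chosen with results known.

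None of the 15 gene-body sites passed limma's threshold over all days (0 called, 0 before adjustment), with adjusted p from 0.116 to 0.996. A quasi-binomial fit called 1 of them lower, CpG 2964225, at +4828 bp (adjusted p = 0.0225); the site is named because of that call, after its values were seen. It had 97.6% ± 0.615 in edited and 98.2% ± 0.211 in gRNA-only cells (SD, n = 6 each), a difference of -0.55 points whose limma adjusted p was 0.26. Differences ran from -3.36 to 0.28 points, with 12 sites lower and 3 higher in edited cells. All 15 had overlapping arms.

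CpG 2964125, at +4728 bp, had the lowest mean over the 14 libraries among the gene-body sites and the largest difference. Its levels in edited cells were 93.4 and 91.1% on day 3, 93.6 and 86.6% on day 7, and 87.1 and 88.6% on day 14. With guides alone the levels were 92.0 and 94.1%, 92.2 and 95.5%, and 92.3 and 94.6% on the same days, and in untreated cells 93.8 and 94.9%. The day 14 edited libraries and edited day 7 replicate 2 were thus the lowest 3 of the 14, while the other 3 edited libraries lay within or near the range of the controls. The edited mean of 90.1% ± 3.09 lay 3.36 points below the gRNA-only mean of 93.4% ± 1.49 (SD, n = 6 each). This was -0.61 ± 0.34 (SE) on the log2 odds scale and did not pass (limma adjusted p = 0.116), whereas limma on untransformed percent called it (adjusted p = 0.0457).

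The other gene-body sites moved within a narrow band. Without CpG 2964125, the lowest of all values in the block was 94.2%, at CpG 2963643 in untreated replicate 2. CpG 2964152, 27 bp further on, had the next lowest mean, 95.4%, and the largest positive difference in the block, 0.28 points. CpG 2963671 and CpG 2963587 had the highest means, 97.97 and 97.96%. The range over the 14 libraries was 1.60 to 8.86 points per site, with a median of 2.21, against a median of 29.2 points at the 131 sites below the limit.

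**Figure D2:**
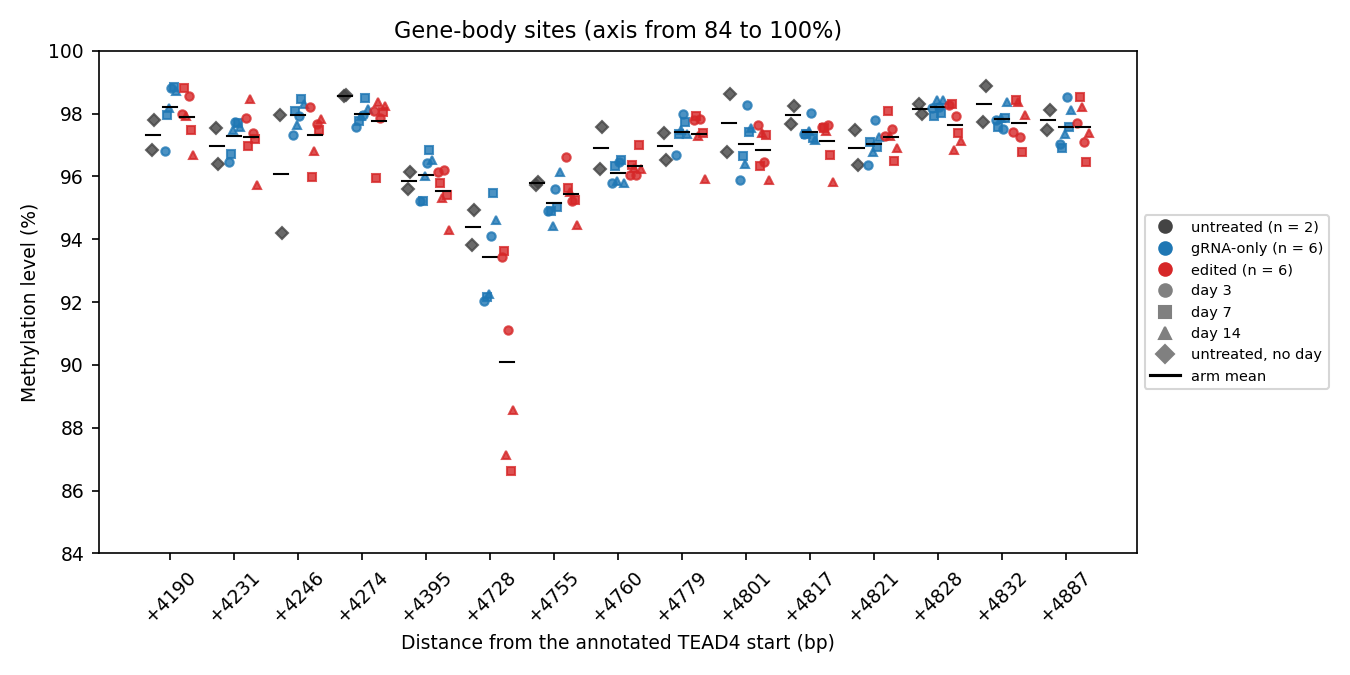
The methylation level (%) of the 15 gene-body sites is plotted by distance from the TEAD4 start, with 1 point per library, colours for the arms, symbols for the days and black bars for arm means. The vertical axis runs from 84 to 100%, so that small differences are enlarged; the site at +4728 bp reaches down to 86.6% in edited cells, and every other value is at least 94.2%.

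Among the 7 high promoter sites, 4 were above 99% in every library and hardly varied. CpG 2958885 (-512 bp, the first site measured) had 99.97 to 99.98%, CpG 2959159 (-238 bp) 99.76 to 99.93%, CpG 2959572 (+175 bp) 99.28 to 99.96% and CpG 2960007 (+610 bp) 99.97 to 100.0%. They stood among sites that were mostly low in the controls and higher in edited cells. CpG 2959159 has CpG 2959150, another of the 26, 9 bp before it and CpG 2959174 15 bp after it, where the gRNA-only mean was 0.639% ± 0.177 and the edited mean 9.88% ± 4.67 (SD, n = 6 each). CpG 2959572 has CpG 2959566 6 bp before it, with 4.70% ± 3.71 in gRNA-only and 23.2% ± 15.4 in edited cells (SD, n = 6 each). CpG 2960007 has CpG 2959984 23 bp before it, with 4.01% ± 8.13 in gRNA-only and 45.4% ± 16.9 in edited cells (SD, n = 6 each). The nearest sites of the 11 promoter sites include 13 sites below the limit, and limma called all 13 higher in edited cells, by 3.38 to 41.4 points. Limma called 130 of all 131 sites below the limit higher, so this is not particular to these neighbours.

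One of these 4 near-complete sites passed the test on a difference of under 1 point. At CpG 2959572 the edited libraries had 99.90 and 99.74% on day 3, 99.96 and 99.95% on day 7, and 99.95 and 99.95% on day 14. The gRNA-only libraries had 99.87 and 99.34%, 99.28 and 99.43%, and 99.90 and 99.53%. The arms overlapped through edited day 3 replicate 2 and 2 gRNA-only libraries, and the untreated libraries had 99.68 and 99.96%. The means of 99.91% ± 0.085 in edited and 99.56% ± 0.266 in gRNA-only cells (SD, n = 6 each) differed by 0.351 points, or 1.41 ± 0.46 (SE) on the log2 odds scale (limma adjusted p = 0.0163). So near to 100% the log2 odds scale enlarges differences, and the call depended on the scale: with limma the adjusted p was 0.0639 with an offset of 1 in place of 0.1 and 0.421 on untransformed percent. Without gRNA-only day 14 replicate 2 it was 0.0524. The other 3 near-complete sites differed by -0.0068 to 0.064 points and did not pass (limma adjusted p = 0.196 to 0.959). Other tests called 2 of them. CpG 2959159 was higher, by 0.064 points, with an adjusted p of 0.0389 by quasi-binomial regression, 0.0431 by the exact permutation test within days and 0.00207 with a variance trend in limma. CpG 2960007 was lower, with a difference of -0.0068 points, in the exact permutation test within days (adjusted p = 0.014). Its p before adjustment, 0.00926, is the smallest that test can give, so it does not measure strength. At this site gRNA-only day 3 replicate 1 had 100.0%, against 99.98% in the other gRNA-only libraries. The exact permutation test called 6 of the 26 sites in all, 5 higher and 1 lower. The share of all 157 sites called is given here for limma without a variance trend only. Counts from the other tests therefore have no share beside them.

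CpG 2959071, at -326 bp, was high in every library. Its mean was lower in both transfected arms than in the untreated libraries, but those libraries chose the site, so that comparison is not a result. The untreated libraries had 96.5 and 91.6%. With guides alone, levels were 82.9 and 83.9% on day 3, 85.2 and 79.6% on day 7, and 81.0 and 82.6% on day 14. The edited libraries had 88.2 and 85.6%, 88.6 and 91.8%, and 87.0 and 95.1%. All 6 edited libraries lay above all 6 gRNA-only libraries, and edited day 14 replicate 2 and edited day 7 replicate 2 lay above 1 of the untreated libraries. Edited cells, at 89.4% ± 3.46, exceeded gRNA-only cells, at 82.6% ± 1.98 (SD, n = 6 each), by 6.84 points, or 0.90 ± 0.38 (SE) on the log2 odds scale, just past the threshold (limma adjusted p = 0.048). The call was lost on leaving out any 1 of 11 of the 14 libraries (adjusted p = 0.0566 to 0.135); it held without either untreated library or without edited day 14 replicate 1. It was also lost with the replicate number as a block (limma adjusted p = 0.0635). The sites on either side, CpG 2959055 and CpG 2959091, had 0.411 to 2.65% in the 8 control libraries and edited means of 8.55 and 7.57%.

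**Figure D3:**
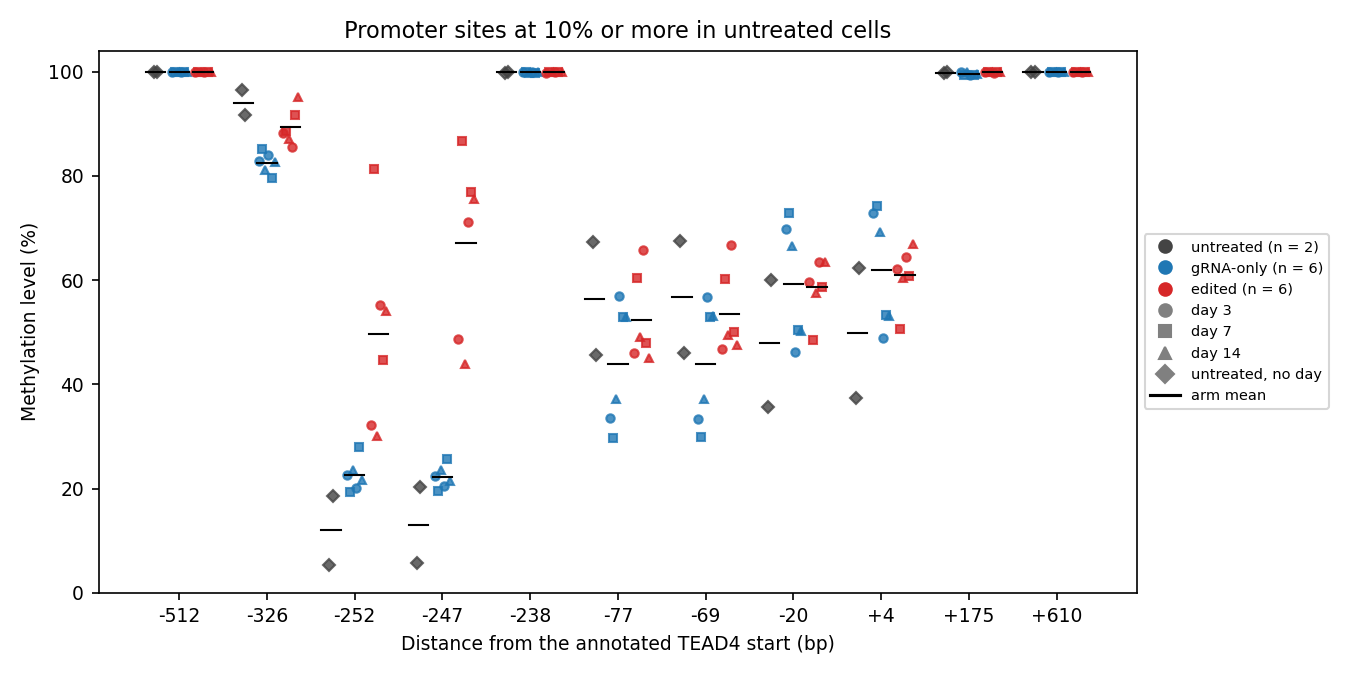
The methylation level (%) of the 11 promoter sites is plotted by distance from the TEAD4 start, with 1 point per library, colours for the arms, symbols for the days and black bars for arm means. The sites at -252 and -247 bp hold all 6 edited libraries above all controls, the 4 sites from -77 to +4 bp spread widely within every arm, and 4 sites stay above 99% throughout.

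The largest differences among the 26 sites were at the neighbours CpG 2959145 and CpG 2959150, at -252 and -247 bp, which are 2 of the 4 intermediate sites. At CpG 2959145 the edited libraries had 32.2 and 55.3% on day 3, 81.4 and 44.7% on day 7, and 30.1 and 54.0% on day 14. The gRNA-only libraries had 22.7 and 20.2%, 19.4 and 27.9%, and 23.6 and 21.6%. The gRNA-only levels were close together, whereas the edited levels were spread over 51.3 points. The lowest edited library still exceeded the highest control library. Levels with guides alone were above the untreated ones, but the untreated libraries chose the site, so that comparison is not a result.

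At CpG 2959150 the edited libraries had 48.7 and 71.1% on day 3, 86.7 and 76.9% on day 7, and 43.9 and 75.5% on day 14. The gRNA-only libraries had 22.3 and 20.5%, 19.6 and 25.7%, and 23.6 and 21.5%. Again no edited library overlapped a control library. The mean rose from 22.2% ± 2.20 with guides alone to 67.1% ± 17.0 after editing (SD, n = 6 each), by 44.9 points or 2.96 ± 0.51 (SE) on the log2 odds scale (limma adjusted p = 0.000432). CpG 2959145 rose from 22.6% ± 3.05 to 49.6% ± 18.8 (SD, n = 6 each), by 27.0 points or 1.79 ± 0.56 (SE) on the log2 odds scale (limma adjusted p = 0.014). Leaving out the 4 control libraries with raised levels below the limit (untreated replicate 2 and the gRNA-only replicate 1 libraries), the adjusted p was 0.00563 at CpG 2959150 and 0.07 at CpG 2959145. In that fit each control group holds 1 library, whose variation is taken from the remaining groups.

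These neighbours are 5 bp apart and had almost equal levels in the controls but not in edited cells. In the 8 control libraries the level at CpG 2959150 minus that at CpG 2959145 ran from -2.25 to 1.76 points. Among the 6 edited libraries it was 16.5 and 15.8 on day 3, 5.30 and 32.3 on day 7, and 13.8 and 21.5 on day 14, in percentage points. CpG 2959150 was thus the higher of the pair in every edited library, by a mean of 17.5 points ± 8.94 (SD, n = 6), and no edited value overlapped the control range. CpG 2959159, 9 bp after the pair, was near 100% in all libraries. CpG 2959129, 16 bp before it, had 0.755% ± 0.251 in gRNA-only and 40.7% ± 20.2 in edited cells (SD, n = 6 each), so the gRNA-only level of the pair was not shared by that neighbour.

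**Figure D4:**
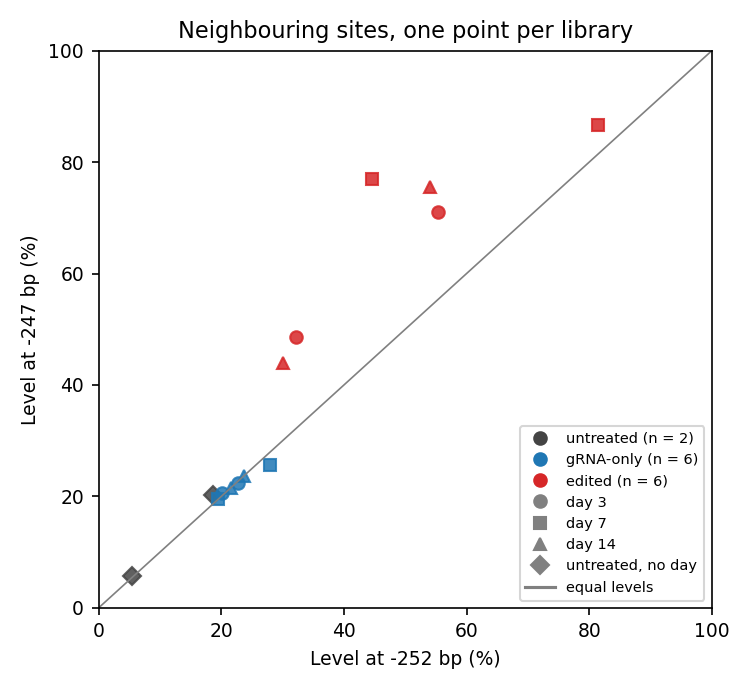
Each point is a library, with its level at -252 bp on the horizontal and at -247 bp on the vertical axis (both %), and the grey line marks equal levels. The 8 control libraries lie close to the line and below 30%, and the 6 edited libraries lie above the line, by 5.30 to 32.3 points.

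The other 4 sites with partial methylation form 2 neighbouring pairs at the start. CpG 2959320 and CpG 2959328, at -77 and -69 bp, had untreated means of 56.4 and 56.8% and so count among the high sites. CpG 2959377 and CpG 2959401, at -20 and +4 bp, had 47.8 and 49.9% and count as intermediate. In both other arms the second pair was the higher. Its gRNA-only means were 59.3 and 61.9%, against 43.8 and 43.9% in the first pair. Its edited means were 58.6 and 60.9%, against 52.4 and 53.4%. The names high and intermediate therefore describe only the mean of the 2 untreated libraries at these sites. None of the 4 passed limma's threshold (adjusted p = 0.262 to 0.912). Differences between edited and gRNA-only cells were 8.55 and 9.58 points in the first pair and -0.719 and -0.996 points in the second. All 4 directions turned without the 4 raised control libraries: on the log2 odds scale the difference went from 0.52 to -0.10 at CpG 2959320, from 0.58 to -0.04 at CpG 2959328, from -0.07 to 0.57 at CpG 2959377 and from -0.09 to 0.54 at CpG 2959401. The SD over the 6 gRNA-only libraries was 11.4 to 11.7 points at each of the 4 sites, larger than each of these differences.

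Within a pair the levels were nearly the same in each library. CpG 2959328 differed from CpG 2959320 by -0.16 to 2.49 points over the 14 libraries, and CpG 2959401 exceeded CpG 2959377 by 0.949 to 3.52 points in all 14. The pairs, 49 bp apart, instead went opposite ways between libraries. As means of the pair at -77 and -69 bp, gRNA-only replicate 1 had 33.5, 29.7 and 37.2% in time order, against 56.8, 52.9 and 53.0% in replicate 2. As means of the pair at -20 and +4 bp, the same libraries had 71.3, 73.5 and 67.9% in replicate 1 and 47.5, 51.8 and 51.7%. Replicate 1 was therefore 15.8 to 23.3 points lower in the first pair and 16.2 to 23.8 points higher in the second on each of the 3 days.

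The untreated libraries were opposed in the same way but with the replicate numbers exchanged. Untreated replicate 1 had 67.4% in the first pair and 36.5% in the second, and replicate 2 had 45.8 and 61.2%. Added together, the means of the pairs came to 103.3 to 107.0% in the 8 control libraries, although each pair alone ranged over more than 35 points there. In edited cells the sums were 107.3 and 130.3% on day 3, 109.9 and 108.7% on day 7, and 108.3 and 111.5% on day 14. All lay above the control libraries, but the lowest, 107.3%, only just exceeded the highest control sum of 107.0%. The sum was not among the planned results and carries no test, and its control range includes the untreated libraries that chose the sites. Edited day 3 replicate 2 stood apart, with 66.3% in the first and 64.0% in the second pair. The sites directly beside these pairs and below the limit, CpG 2959306, CpG 2959337, CpG 2959375 and CpG 2959403, had gRNA-only means of 0.576 to 1.62% and edited means of 3.96 to 21.0%. The depth and the molecules behind each level were not analysed here, so whether the same molecules carry both pairs was not tested.

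**Figure D5:**
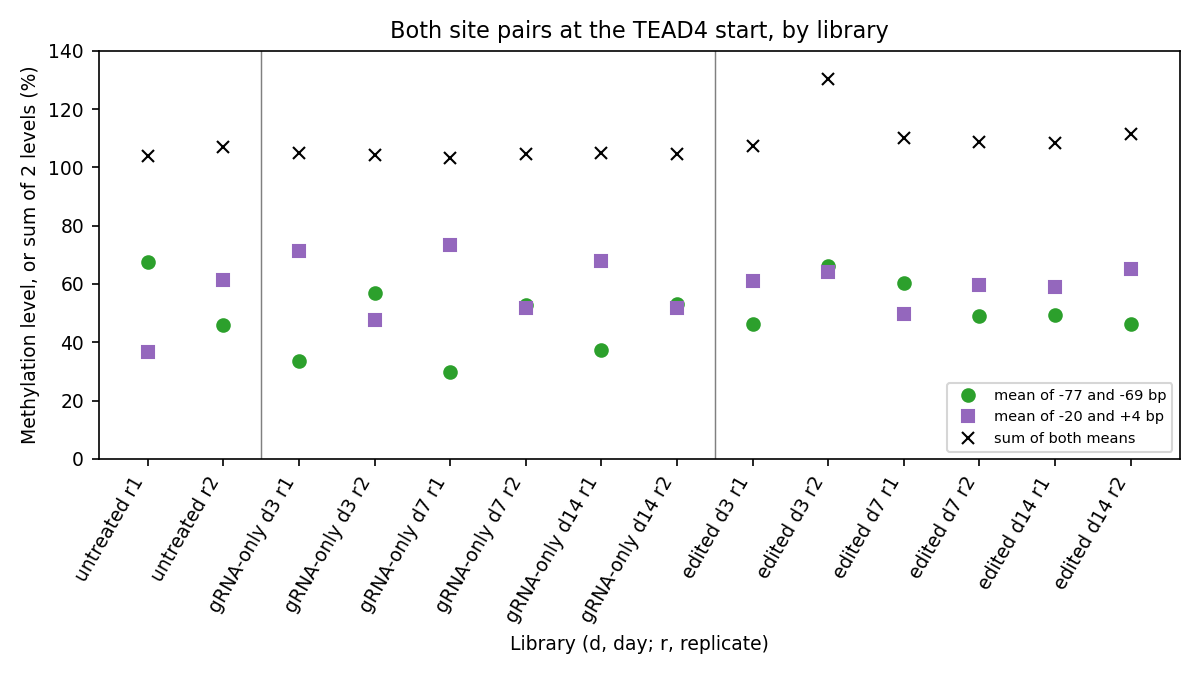
The mean level (%) of the pair at -77 and -69 bp (circles) and of the pair at -20 and +4 bp (squares) is plotted for each of the 14 libraries, with the sum of both as crosses. In the controls 1 pair is high where the other is low and the sum stays between 103.3 and 107.0%, and edited day 3 replicate 2 has a sum of 130.3%.

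By day, limma called only sites around the start. On day 3 it called 0 of the 26 sites (1 before adjustment; 0 by quasi-binomial regression, 1 before adjustment), against 29.9% of all sites higher. CpG 2959150 was nearest, with a difference of 38.5 points (limma adjusted p = 0.059). On day 7 it called 3 sites higher, against 60.5% of all sites: CpG 2959150 by 59.2 points (adjusted p = 0.00345), CpG 2959145 by 39.4 points (adjusted p = 0.0398) and CpG 2959572 by 0.601 points (adjusted p = 0.0254). Quasi-binomial regression called 2 of these, not CpG 2959145. On day 14 limma called CpG 2959150 alone, by 37.1 points (adjusted p = 0.0399), against 56.7% of all sites. Quasi-binomial regression called it too and also called the gene-body site CpG 2964225 lower (adjusted p = 0.0082), where limma gave an adjusted p of 0.123, or 0.0148 with a variance trend. The single-day calls rest on 2 libraries a group. CpG 2959150 held on day 7 without any 1 library, but its day 14 call was lost on leaving out any of 9 libraries, all but the untreated libraries, the edited day 3 libraries and edited day 14 replicate 1 (limma adjusted p = 0.0505 to 0.287). CpG 2959145 lost its day 7 call without edited day 7 replicate 1 or any of the gRNA-only libraries (limma adjusted p = 0.0519 to 0.315). CpG 2959572 lost its call without any of the 4 libraries of that day (limma adjusted p = 0.0756 to 0.0969) and with an offset of 1 (0.0948).

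Between days, no difference was detectable at these sites. From day 3 to day 14 the mean in edited cells went from 43.7% ± 16.4 to 42.0% ± 16.9 at CpG 2959145 and from 59.9% ± 15.9 to 59.7% ± 22.3 at CpG 2959150 (SD, n = 2 each), with day 7 means of 63.0% ± 26.0 and 81.8% ± 6.90 in between. Limma called 0 of the 26 sites between edited day 14 and day 3 (0 before adjustment at 0.05; 0 by quasi-binomial regression, 1 before adjustment), where 0.0% of all sites were called in either direction. The differences between arms did not change detectably from day 3 either: limma called 0 of the 26 sites for day 7 (0 unadjusted) and 0 for day 14 (0 unadjusted), and quasi-binomial regression called 0 for both (0 and 1 unadjusted). With 2 libraries a group and SDs of up to 26.0 points, a change of similar size could be missed at these sites.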

How the data were processed

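Percent methylation at 157 CpG sites on chromosome 12 was taken from the deposited tables, 1 for each of 14 libraries, written with decimal commas. Per the submitters' processing notes, reads were handled with Trim Galore 0.6.7 and Bismark 0.23.1 on hg38; the steps from calls to table and the coverage per site are not stated in what was used here. The members and lists were chosen with earlier results of these data known. Groups and replicate numbers come from the labels.

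Levels are means ± SD over libraries; the SD of an arm covers 3 days. Tests used limma 3.58.1 in R 4.3.3 on log2((percent + 0.1)/(100 − percent + 0.1)) for all 157 sites and 14 libraries, 1 mean per group, two-sided, with Benjamini-Hochberg adjustment over all sites and a threshold of 0.05. Libraries of 1 arm on different days were taken as independent, although the gRNA-only replicate 1 libraries deviated alike on all 3 days, so these p-values may be too small. The fit was also run on simulated data in which libraries vary independently, so that run does not cover libraries that deviate alike. Named were all promoter sites with their nearest neighbours, the sites at the limit, and of the gene-body sites the 2 lowest and 2 highest by mean, the largest difference in each direction and any past the threshold. Means over several sites carry no p-value, since the sites were chosen with results known. Alternatives were untransformed percent, other offsets, quasi-binomial regression with an F-test, an exact permutation test within days, a replicate block, other limits, medians over sites, and leaving out libraries. Gene positions and the sequence are RefSeq's for GRCh38.p14. Exons and introns were not assigned. Python 3.11.15, numpy 2.4.6 and pandas 2.3.3 were used.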

Additional observations from a re-analysis of the deposited data

Results flagged for a closer look

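In 4 of 36 sets of 6 libraries examined (3 site groups and 15 named sites in 2 arms), 1 library stood apart from the rest by Dixon's 95% critical value, which chance exceeds in about 1 set in 20. At CpG 2959159 edited day 3 replicate 1 had 99.81%, against 99.90 to 99.93% in the other edited libraries. At CpG 2959572 edited day 3 replicate 2 had 99.74%, against 99.90 to 99.96%. At CpG 2960007 gRNA-only day 3 replicate 1 had 100.0%, against 99.98% in the others. At CpG 2963671, in the gene body, edited day 7 replicate 1 had 95.9%, against 97.9 to 98.4%. The first 3 gaps are small in percentage points because these sites hardly varied.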

How the results depend on the processing

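Leaving out 4 control libraries and the limma fit with a variance trend were added after the values were seen. Over all days 4 of the 26 sites were called. The count was 2 without the 4 control libraries, 21 with the limit for choosing sites at 5%, which adds sites, and 2 with it at 20%, which removes 2. Leaving out 1 library gave 2 to 4 sites over all days, 0 to 1 on day 3, 1 to 3 on day 7, 0 to 2 on day 14 and 0 to 0 between edited days 14 and 3. With the limit at 5% the counts were 1, 5 and 3 on days 3, 7 and 14, and with it at 20% 1 on day 7 and 0 on day 14. The number of sites chosen at 5% is not given here, so the counts at that limit have no share beside them. The added sites all come from the 131 sites below the main limit, of which limma called 130 higher over all days. The count of 21 therefore does not show a change in the calls among the 26 sites. On day 14 the count was 2 on untransformed percent, 2 with quasi-binomial regression (1 higher, 1 lower) and 3 with a variance trend (2 higher, 1 lower). The lower site in both was CpG 2964225. The cause of these shifts was not tested, other than for the limits.

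Leaving out 1 library moved the differences of site means between arms to -0.50 to -0.24 points in the gene body, 2.88 to 4.40 at the 7 high promoter sites and 16.0 to 19.8 at the 4 intermediate sites. The median over the 7 high sites gave 0.335 points in place of a mean of 3.62, as 4 of them are near 100%. Without the gRNA-only replicate 1 libraries the differences of means were -0.76 points in the gene body, 0.744 at the high and 22.4 at the intermediate promoter sites. None of the sites past the threshold changed direction, but 7 sites that did not pass did. This count covers the promoter sites and the gene-body sites named by mean or largest difference, and not the other gene-body sites. Without the 4 control libraries the log2 odds difference became -0.0030 at CpG 2958885, -0.10 at CpG 2959320, -0.040 at CpG 2959328, 0.57 at CpG 2959377, 0.54 at CpG 2959401 and -0.041 at CpG 2964152. Without 1 library it ran from -0.30 to 0.17 at CpG 2959377, -0.34 to 0.16 at CpG 2959401 and -0.27 to 0.081 at CpG 2963671. With a replicate block 3 sites were called over all days, CpG 2959071 being lost, and no other call changed. The replicate numbers were not taken to pair the libraries: of 21 pairs of groups, 7 had a correlation over 0.1 across sites, from -0.73 to 0.75. The gRNA-only replicate 1 libraries did deviate alike on all 3 days. Among the values for named sites under alternatives, 18 lost their call, 5 gained one and 16 changed direction without passing, and the others kept their direction and side of the threshold. Depth per site is unknown, so it cannot be said what counting error allows.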
